A study of Homo sapiens with 6 samples.

Results

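The enzymes that cut extracellular matrix and the inhibitors that hold them back were followed in A375 cells, a human melanoma line that carries mutant BRAF, with and without added HMGB2, a DNA-bending chromatin protein. The set was chosen by name. It holds the protein-coding genes whose symbols are MMP, ADAM, ADAMTS or TIMP with a number or CTS with 1 letter, together with PLAU, PLAUR and PLAT, which gave 83 of the 58302 gene IDs in the count tables: 22 MMPs (matrix metalloproteinases), 20 ADAMs, 19 ADAMTS genes, 15 cathepsins, 4 TIMPs (tissue inhibitors of metalloproteinases) and 3 genes of plasminogen activation. Bulk RNA sequencing of poly(A) RNA was deposited for 6 libraries, 3 from A375 cells with an empty vector and 3 from A375 cells stably overexpressing HMGB2, a line made with lentivirus and antibiotic selection. The study describes replicates of pelleted cells, and its reporting form calls them technical, so the spread between them is that of pellets of a line and not of separate transductions.

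Matrix metalloproteinases are made as inactive precursors and cut collagens and other matrix proteins once their propeptide is removed, and TIMPs bind their active site. ADAMs are membrane-bound relatives that release the outer parts of growth factors and receptors, and ADAMTS enzymes are secreted relatives that cut proteoglycans and procollagens. Plasminogen activators turn plasminogen into plasmin, which cuts fibrin and activates several MMPs, while cathepsins are mostly lysosomal proteases that melanoma and other invasive cells can also secrete. These enzymes are controlled by activation, inhibition and uptake as well as by transcript level, and only transcript level was measured here.

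Promoter windows from RefSeq on GRCh38.p14, running from 250 bases before a gene's start to 50 after it, were matched by symbol for 52 of the 83 genes, among them 3 of the 6 genes called below. The 250 bases before the start are shown for those 3 called genes, and for MMP7 and MMP10, which lie in the same cluster of MMP genes and whose fitted changes had opposite signs. They are written 5′ to 3′ on the gene's strand, at chr22:23772599-23772848, plus strand for MMP11, chr9:97039143-97039392, minus strand for CTSV, chr15:100341976-100342225, minus strand for ADAMTS17, chr11:102530748-102530997, minus strand for MMP7 and chr11:102780629-102780878, minus strand for MMP10. For MMP11 and CTSV the RefSeq start lies inside the GENCODE gene. Capitals mark matches to the AP-1 motif TGANTCA, which is bound by FOS and JUN proteins, or to the E-box forms CACGTG and CATGTG, which are bound by basic helix-loop-helix factors.
MMP11: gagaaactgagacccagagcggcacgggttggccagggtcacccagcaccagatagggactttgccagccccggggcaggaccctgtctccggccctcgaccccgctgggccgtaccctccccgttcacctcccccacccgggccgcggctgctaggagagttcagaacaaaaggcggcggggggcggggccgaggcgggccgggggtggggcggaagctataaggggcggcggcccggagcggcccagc
CTSV: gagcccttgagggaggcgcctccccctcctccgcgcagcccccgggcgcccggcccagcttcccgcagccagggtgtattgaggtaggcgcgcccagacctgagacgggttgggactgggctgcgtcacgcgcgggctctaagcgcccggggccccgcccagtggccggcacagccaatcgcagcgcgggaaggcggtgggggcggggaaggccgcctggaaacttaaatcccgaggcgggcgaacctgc
ADAMTS17: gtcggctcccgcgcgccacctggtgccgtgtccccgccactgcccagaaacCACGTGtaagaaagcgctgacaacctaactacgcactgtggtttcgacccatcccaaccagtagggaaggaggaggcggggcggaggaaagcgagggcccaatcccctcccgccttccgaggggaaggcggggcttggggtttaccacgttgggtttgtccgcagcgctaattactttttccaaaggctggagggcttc
MMP7: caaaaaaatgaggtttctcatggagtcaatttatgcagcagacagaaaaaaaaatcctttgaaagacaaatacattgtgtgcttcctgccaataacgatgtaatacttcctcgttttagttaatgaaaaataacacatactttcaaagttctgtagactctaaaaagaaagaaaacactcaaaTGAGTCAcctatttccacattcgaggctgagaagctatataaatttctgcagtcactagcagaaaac
MMP10: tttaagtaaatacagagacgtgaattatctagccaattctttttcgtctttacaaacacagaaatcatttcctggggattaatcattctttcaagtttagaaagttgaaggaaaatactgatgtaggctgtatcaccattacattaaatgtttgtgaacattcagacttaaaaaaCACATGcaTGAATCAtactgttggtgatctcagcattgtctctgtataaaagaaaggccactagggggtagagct

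The MMP7 and MMP10 windows each held an AP-1 match whose first base lay at position -67 from the start, followed by a TATAAA match at -30 in MMP7 and at -31 in MMP10. MMP10 also held CATGTG on the other strand at -75, and ADAMTS17 held CACGTG, which reads alike on both strands, at -199. The MMP11 and CTSV windows held none of these letters. Over whole windows and both strands, TGANTCA occurred in 7.71% of 35116 windows and in 5 of the 52 matched members (9.62%), which were ADAMTS12, MMP7, MMP10, MMP20 and PLAUR. CACGTG occurred in 7.26% of all windows and 15.4% of the members, CATGTG in 11.1% and 9.62%, and TATAAA in 11.5% and 15.4%. None of the 4 motifs overlapped another in the windows shown. A match describes letters and was not tested as a binding site.

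Between 45925053 and 56755212 reads were assigned to genes per library. HMGB2 had normalized counts (counts divided by DESeq2 size factors) of 7250.1, 7729 and 7562 in the control libraries, listed here and below in replicate order, and 15095, 16848 and 14609 in those overexpressing it, 1.05 higher on the log2 scale (SE 0.10, adjusted p = 4.4e-22, DESeq2), and reads of the vector's HMGB2 cannot be told from those of the cells' own gene. Empty vector replicate 3 stood apart from its group while its HMGB2 level did not: it had 260 reads of the keratin gene KRT5 where replicates 1 and 2 had 5 and 13 and the overexpressing libraries had 203 to 275. Of the melanocyte markers, MITF and S100B were present at normalized counts of 1381 to 1719 and 3346 to 3841, PMEL was between 49.6 and 67.0, and MLANA, TYRP1, TYR and DCT were at 21.3 or less, with a summed level of 4877 to 5096 in empty vector libraries and 5302 to 5624 with HMGB2. SOX10 was at 0 in the column used, where reads in places shared with a gene on the other strand are set aside, and held 253416 reads in the sum of the stranded columns, and PMEL, at 342 reads in the column used, held 10158. Of the markers of other cell types, the leukocyte list had PTPRC at 0 and summed to between 19.5 and 49.1 in the column used, where CD68 had 4 reads in all against 1340 in the sum of the stranded columns. The endothelial list had sums of 197 to 214 in controls and 148 to 164 with HMGB2, which did not overlap, with CDH5 at 13.6 or less, PECAM1 and VWF between 25.7 and 67.7 and KDR between 47.3 and 134. KDR was the 1 of its 4 genes called, lower by DESeq2 (-1.11 on the log2 scale, adjusted p = 0.00115), VWF had a change of -0.40, and PECAM1 and CDH5 had positive ones. The fibroblast list summed to between 3068 and 5224 without and between 4606 and 6382 with HMGB2, with none of its 6 genes called, and the keratinocyte list to between 4486 and 5076, with none of its 4 genes called. Their part in the results below was not tested. In bulk RNA, fewer cells that express a gene and less RNA per cell cannot be told apart.

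Most of the set was present in A375 cells, but at very different levels. Reads of 74 of the 83 members were found. The other 9, namely MMP21, MMP26, MMP27, ADAM2, ADAM7, ADAM18, ADAM29, ADAM30 and CTSG, were at 0 in every library. A further 7 members had so few reads that DESeq2 gave them no adjusted p (MMP12, MMP20, ADAM20, ADAM32, ADAM33, ADAMTS18 and TIMP4), which left 67 tested. Levels were compared between genes as normalized counts per kilobase of merged exons. On this scale the inhibitors TIMP3, at 16232 ± 2996 in empty vector cells (SD, n = 3), and TIMP1, at 9435 ± 1172, stood above every protease. The highest proteases were MMP2 at 2051 ± 515, MMP14 at 1291 ± 312, ADAM15 at 1269.7 ± 60.3, CTSB at 1155 ± 134 and PLAT at 1044 ± 38.3, where neighbours from MMP14 onwards did not differ beyond the spread between libraries. The order depended on the length used. Per kilobase of the Ensembl canonical transcript, a length added after the data were seen, TIMP1 reached 17740.5 ± 2204, TIMP3 16232 ± 2996, CTSZ 11539 ± 1542 and CTSC 8469 ± 515 in empty vector cells. In overexpressing cells CTSZ, at 14586 ± 1676, was then level with TIMP3, at 13630.3 ± 1294. The merged exons of CTSZ came to 19384 bases and its canonical transcript to 1502, and those of CTSC to 24849 and 1870. By mean level over the 6 libraries, MMP2 ranked 3 among the members per merged exons, 8 per canonical transcript and 4 per longest annotated transcript. MMP14 ranked 4, 13 and 9 in the same order.

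**Figure D1:**
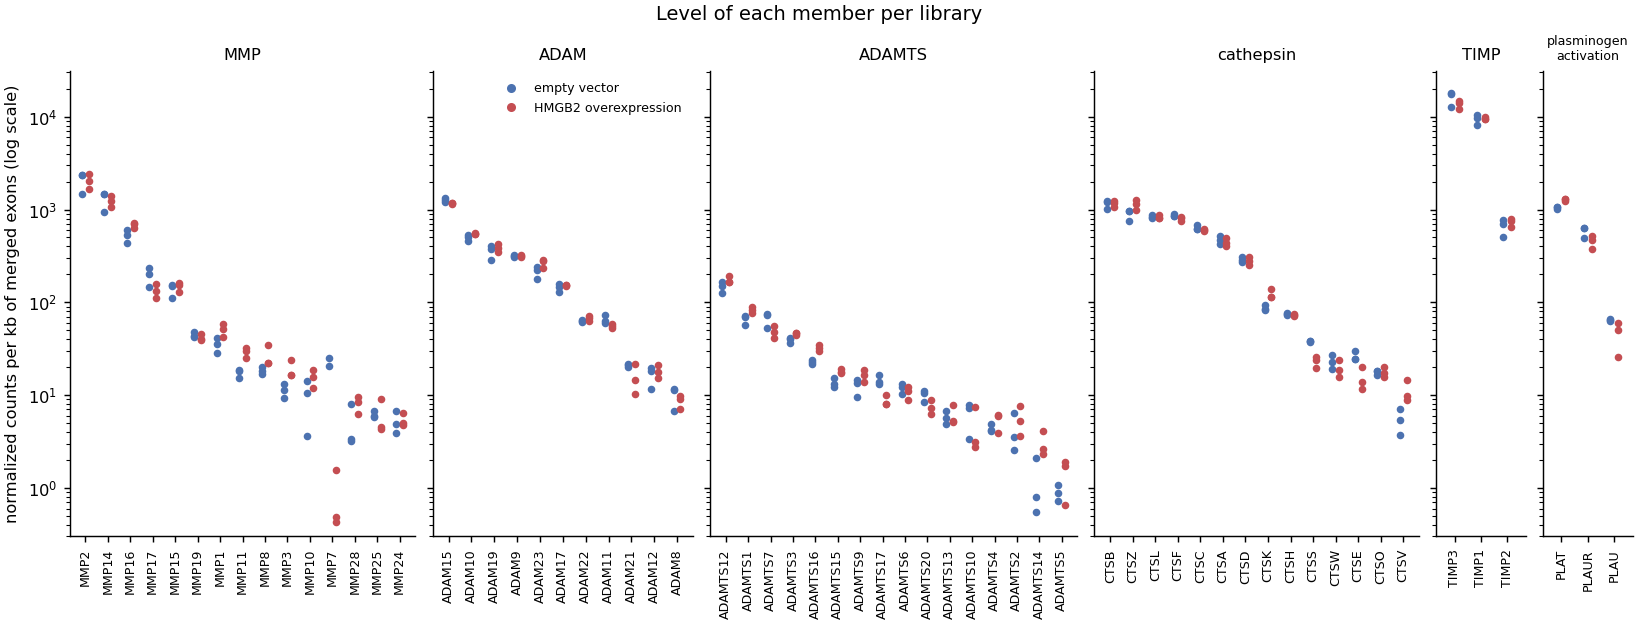
Normalized counts per kilobase of merged exons (log scale) for members whose mean normalized count was at least 10, grouped by family, with 1 point per library, empty vector in blue and HMGB2 overexpression in red. TIMP3 and TIMP1 lie highest, the groups overlap for most members, and the empty vector library of MMP7 at 0 cannot be drawn on a log scale.

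Few of these genes were called between the groups, and a gene not called may still differ. Of the 67 tested, 4 were called higher (CTSK, CTSV, MMP11 and PLAT) and 2 lower (CTSS and ADAMTS17) at a DESeq2 adjusted p under 0.05, and 61 were not called. Over all 18836 genes tested, 2.29% were called higher and 2.64% lower, against 5.97% and 2.99% of the members, so the share called lower was near the background and the share called higher rests on 4 genes. An unadjusted p under 0.05 was reached by 18 of the 67 members and by 14.3% of all genes tested. The median log2 fold change of the tested members was 0.05, against 0.0027 over all genes, with 37 members positive and 30 negative. Of all genes tested, 50.4% were positive. In 16 of the 67 tested members the lowest overexpressing library lay above the highest empty vector library. In 7 of the 67 the reverse held. Among all 18836 genes tested this was so for 2093 (11.1%) and 2023 (10.7%). The members' share was thus above that of all genes on the higher side and near it on the lower side, and the difference was not tested. The members that passed the filter on low counts are not the whole set, and those tested differ from the 16 untested ones by their level.

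**Figure D2:**
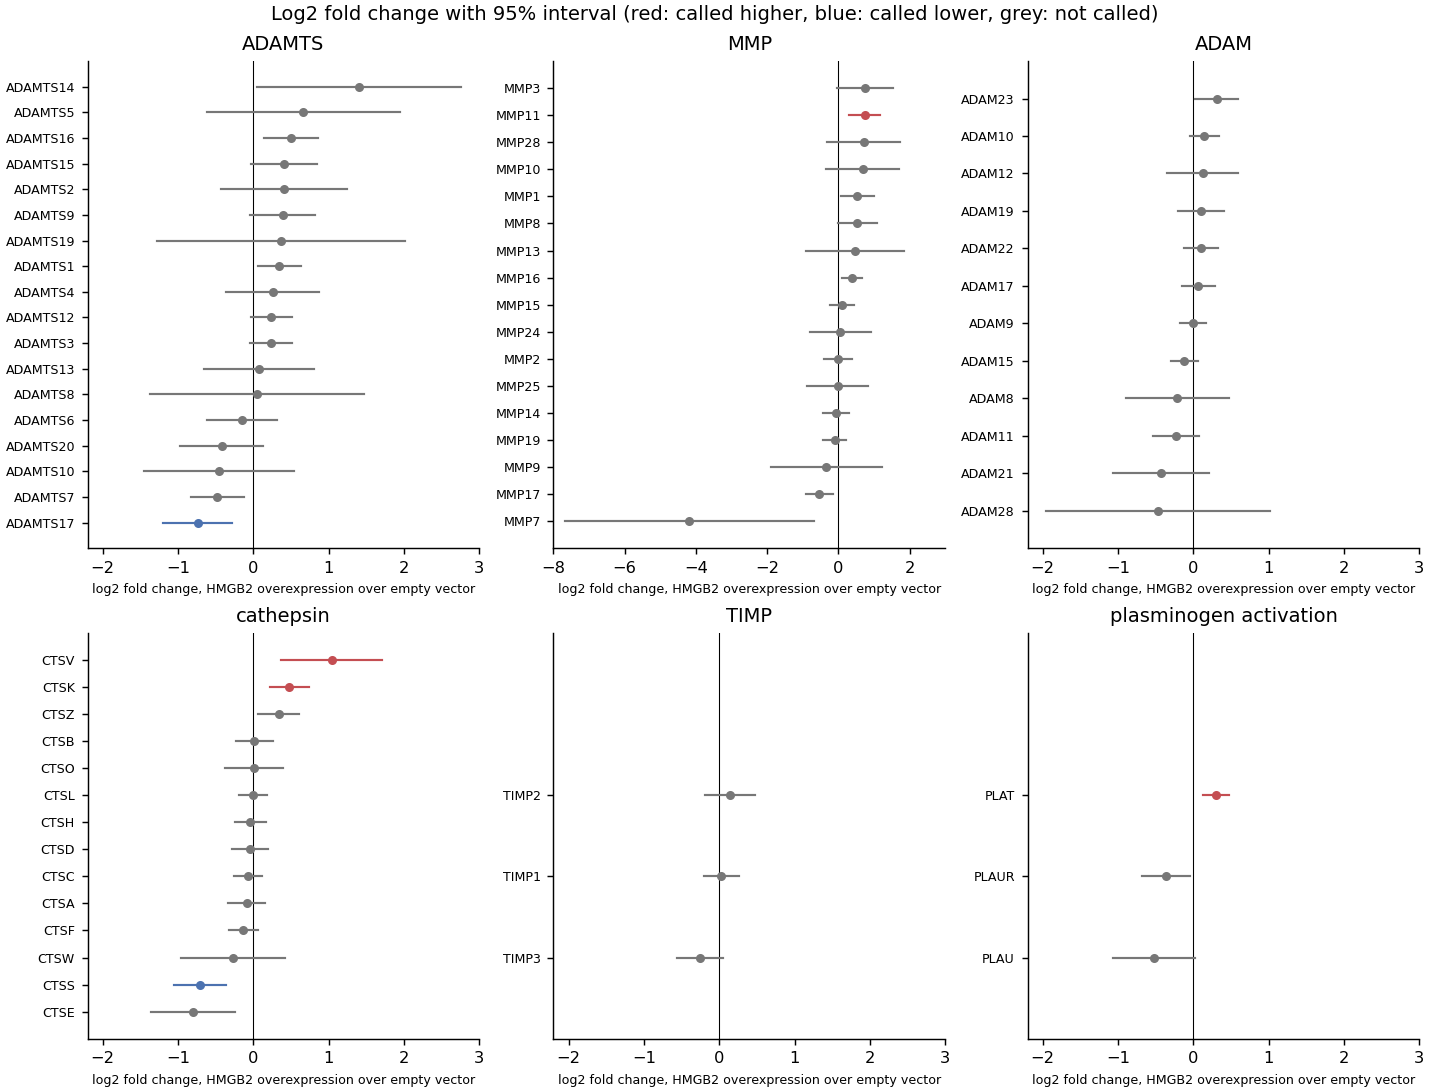
Log2 fold change of HMGB2 overexpression over empty vector (x axis) with its 95% interval for each of the 67 tested members, by family, where red marks members called higher, blue members called lower and grey those not called. The MMP panel has a wider x axis, on which MMP7 lies at -4.19 with an interval of -7.69 to -0.69, and abundant members such as CTSL and ADAM9 have short intervals around 0.

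The calls depended on the test and on single libraries. With edgeR's quasi-likelihood test, CTSS was the 1 member called lower and none was called higher, while 14 members had a positive and 6 a negative change at an unadjusted p under 0.05; edgeR called 1.28% of 16754 genes higher and 1.52% lower. Leaving out empty vector replicate 3 raised the members called to 5 higher and 7 lower, against 8.31% and 9.46% of 16062 genes, and with replicates 1 and 2 alone 6 were higher and 7 lower, against 8.01% and 9.44% of 15028 genes. Leaving out any other library left between 0 and 2 members called, and the share of all genes called fell as well. Without overexpression replicates 1, 2 and 3 in turn, 0, 0 and 0 members were called higher by DESeq2 against 1.04%, 1.15% and 0.941% of all genes, and 2, 0 and 1 lower against 1.45%, 1.42% and 1.35%. Without empty vector replicates 1 and 2 in turn, 0 and 1 were called higher against 0.839% and 1.09%, and 0 and 0 lower against 1.13% and 1.47%. Where 0 were called in a direction, between 3 and 9 members had an unadjusted p under 0.05 in it. The normalized level was lowest in replicate 3 of both groups for 28 of the 67 members (41.8%), among them TIMP1, TIMP2, TIMP3, MMP2, MMP14 and CTSB, and for 27.0% of all genes tested. With a replicate block on all 6 libraries, 6 of 56 members tested were called higher (10.7%) and 5 lower (8.93%) by DESeq2. Over the 14552 genes tested in that fit, 6.09% were called higher and 6.46% lower.

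**Figure D3:**
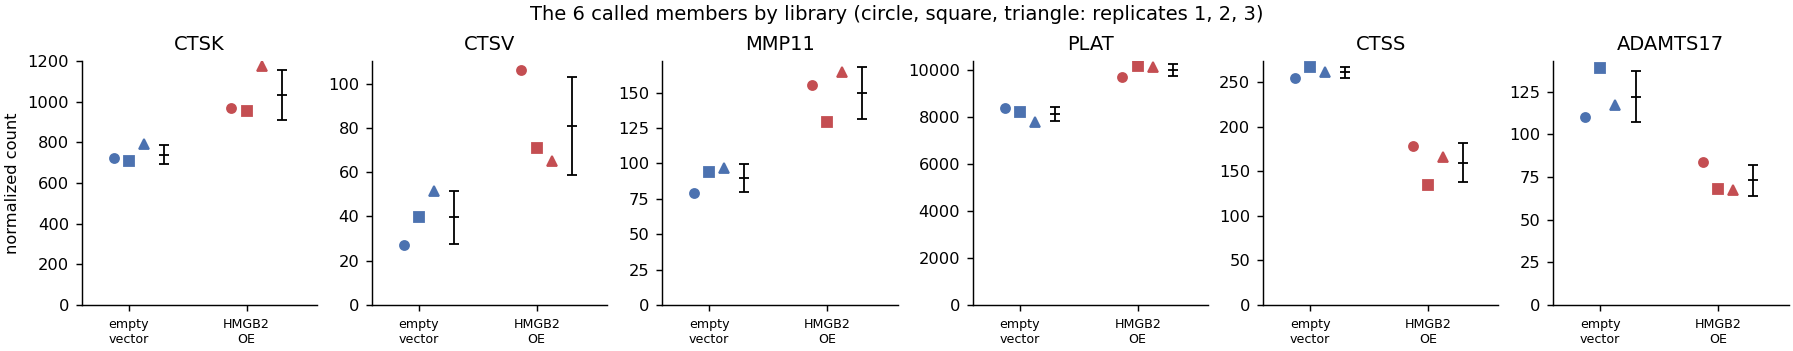
Normalized counts of the 6 called members by library, with circles, squares and triangles for replicates 1, 2 and 3 and the mean ± SD (n = 3) beside each group, all axes starting at 0. In each panel the 3 overexpressing libraries lie on 1 side of the 3 empty vector libraries, and CTSV has the widest spread.

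Among the cathepsins, CTSK and CTSV rose and CTSS fell, and the abundant lysosomal members were not called. CTSK encodes cathepsin K, a cysteine protease that cuts the triple helix of collagen. Its normalized counts were 723, 707 and 791 in empty vector replicates 1 to 3 and 969, 952 and 1176 with HMGB2. All overexpressing libraries lay above the empty vector libraries, at 1.39-fold (log2 fold change 0.48, SE 0.13, DESeq2 adjusted p = 0.0109). CTSS encodes cathepsin S, a cysteine protease that cuts elastin and trims the class II invariant chain. It had 255, 267 and 262 normalized counts in empty vector and 178, 135 and 167 in overexpressing libraries. The groups did not overlap and the level was 0.612-fold (log2 fold change -0.71, SE 0.18, DESeq2 adjusted p = 0.00274, edgeR adjusted p = 0.0337).

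CTSK and CTSS are next to each other on chromosome 1 in GENCODE 44 on hg38. CTSK (ENSG00000143387) lies at chr1:150794880-150809577, minus strand and CTSS (ENSG00000163131) at chr1:150730079-150765957, minus strand, with 28922 bases and 0 protein-coding genes between them, and their fitted changes went opposite ways. CTSS was called in 10 of 13 alternatives, the most of the 6, with a DESeq2 adjusted p of 0.134 without overexpression replicate 2, 0.0667 without empty vector replicate 1 and 0.0810 without empty vector replicate 2. CTSK was called in 7, with a log2 fold change of 0.38 to 0.53 and an adjusted p of up to 0.246 (DESeq2, without overexpression replicate 3), and its edgeR adjusted p was 0.069.

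CTSV (ENSG00000136943, chr9:97029677-97156556, minus strand) encodes cathepsin V, a close relative of cathepsin L with strong elastin-cutting activity. It was a low gene, at 27.3, 39.9 and 51.5 normalized counts in empty vector libraries and 106, 70.9 and 65.3 with HMGB2. The overexpressing libraries were all above the controls, and the 2.05-fold difference was the largest of the 4 called increases (log2 fold change 1.04, SE 0.34, DESeq2 adjusted p = 0.0471). CTSL, its relative, had a log2 fold change of -0.01 (95% interval -0.19 to 0.18). The CTSV call was lost with edgeR (adjusted p = 0.107) and without the independent filter (DESeq2 adjusted p = 0.0819).

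CTSZ and CTSE were not called in the fit of all 6 libraries by group alone but did not overlap between groups. CTSZ, a carboxypeptidase that also binds integrins, had 18627, 18711 and 14658 normalized counts in empty vector and 22086, 24332 and 19307 in overexpressing libraries (log2 fold change 0.34, SE 0.14, DESeq2 adjusted p = 0.18). CTSE, an aspartic protease outside the usual lysosomal set, had 87.9, 106 and 86.9 without and 49.1, 41.4 and 72 with HMGB2 (-0.80, SE 0.29, DESeq2 adjusted p = 0.0872). CTSF, a cysteine protease of lysosomes, had 3849, 3633 and 3584 without and 3429, 3507 and 3166 with HMGB2, which also did not overlap, at a log2 fold change of -0.13. With replicates 1 and 2 alone CTSZ was called higher (DESeq2 adjusted p = 1.9e-05) and CTSE lower (DESeq2 adjusted p = 0.0231). With a replicate block on all 6 libraries CTSZ was called higher (DESeq2 adjusted p = 3.3e-05) and CTSE was not called (DESeq2 adjusted p = 0.1005).

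The main lysosomal cathepsins overlapped between groups. CTSB, a cysteine protease with both endopeptidase and exopeptidase activity, had 12824, 13123 and 10539 normalized counts in empty vector libraries and 12404, 13167 and 11215 with HMGB2, a log2 fold change of 0.01 (95% interval -0.23 to 0.26). CTSD, the main aspartic protease of lysosomes, had 1754, 1641 and 1531 without and 1588, 1741 and 1443 with HMGB2 (-0.05, 95% interval -0.28 to 0.19). Its level is uncertain, since a readthrough gene on the same strand covers 22.9% of its exon bases and reads there are assigned to neither. CTSA, a serine carboxypeptidase that also protects lysosomal sialidase, had 4477, 4070.3 and 3661 without and 3787, 4211 and 3469.7 with HMGB2 (-0.09, 95% interval -0.34 to 0.16), with 60.7% of its stranded reads kept because NEURL2 overlaps it. CTSC, CTSH and CTSO had log2 fold changes of -0.07, -0.04 and 0.01, and CTSW, a cathepsin of cytotoxic lymphocytes, had a mean of 41.8 ± 7.42 normalized counts in empty vector and 34.8 ± 7.39 in overexpressing cells (SD, n = 3).

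Of 17 MMPs tested, MMP11 rose and the other 16 were not called, while 5 had an unadjusted p under 0.05. MMP11 (ENSG00000099953, chr22:23768226-23784316, plus strand) encodes stromelysin-3, which is activated inside the cell by furin and is best known from the stroma of carcinomas. Its normalized counts were 78.8, 93.9 and 96.6 in empty vector libraries and 155, 129 and 164 with HMGB2. Every overexpressing library was above every control, at 1.66-fold (log2 fold change 0.74, SE 0.22, DESeq2 adjusted p = 0.0192, edgeR adjusted p = 0.0551). The DESeq2 call was lost with replicates 1 and 2 alone (adjusted p = 0.0780) and when any library but empty vector replicate 3 was left out, with an adjusted p of up to 0.321.

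A cluster of 9 MMP genes, all on the minus strand, lies on chromosome 11 between 102520508 and 102955732. It holds the secreted collagenases and stromelysins that AP-1 is known to induce, and 6 of the 9 could be tested. Of these 6, MMP8, MMP10, MMP1, MMP3 and MMP13 had positive changes and MMP7 a negative one, and none was called with DESeq2, while MMP1 and MMP7 had an unadjusted p under 0.05. MMP1, the interstitial collagenase, had 113, 98.3 and 77.3 normalized counts in empty vector and 142, 116 and 159 in overexpressing libraries, which did not overlap (log2 fold change 0.53, SE 0.24, DESeq2 adjusted p = 0.244). The column used keeps 52.6% of its stranded reads because WTAPP1 overlaps it, and in the sum of the stranded columns the log2 fold change was 0.40 (DESeq2 adjusted p = 0.282). MMP8, the neutrophil collagenase, had 57.6, 62 and 69.8 without and 77.2, 76.8 and 119 with HMGB2 (0.53, SE 0.28, DESeq2 adjusted p = 0.385). MMP3, or stromelysin-1, which also activates other MMPs, had 24.2, 21.3 and 17.2 without and 30.9, 30.5 and 43.9 with HMGB2 (0.74, SE 0.40, DESeq2 adjusted p = 0.4). Neither overlapped between groups, whereas MMP10 and MMP13 did, at means of 16.8 ± 9.54 and 7.65 ± 3.91 normalized counts in empty vector cells and 27 ± 5.89 and 10.8 ± 2.82 with HMGB2. MMP12 had 11 reads, MMP20 had 1 and MMP27 had 0 over the 6 libraries.

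MMP7, or matrilysin, a small MMP without the C-terminal domain of the others, behaved differently between libraries of 1 group. It had 57, 54 and 0 reads in the empty vector libraries, in replicate order, and 4, 1 and 1 in the overexpressing ones. Empty vector replicates 1 and 2 were above every overexpressing library, and empty vector replicate 3 was below them all, so the groups overlapped. The log2 fold change was -4.19 (SE 1.79, 95% interval -7.69 to -0.69, DESeq2 adjusted p = 0.199). Without empty vector replicate 3 it was -4.73 (DESeq2 adjusted p = 1.2e-07), and MMP7 was then called lower. With its reads mainly in empty vector replicates 1 and 2, MMP7 was removed by edgeR's filter on low counts and had no edgeR result.

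**Figure D4:**
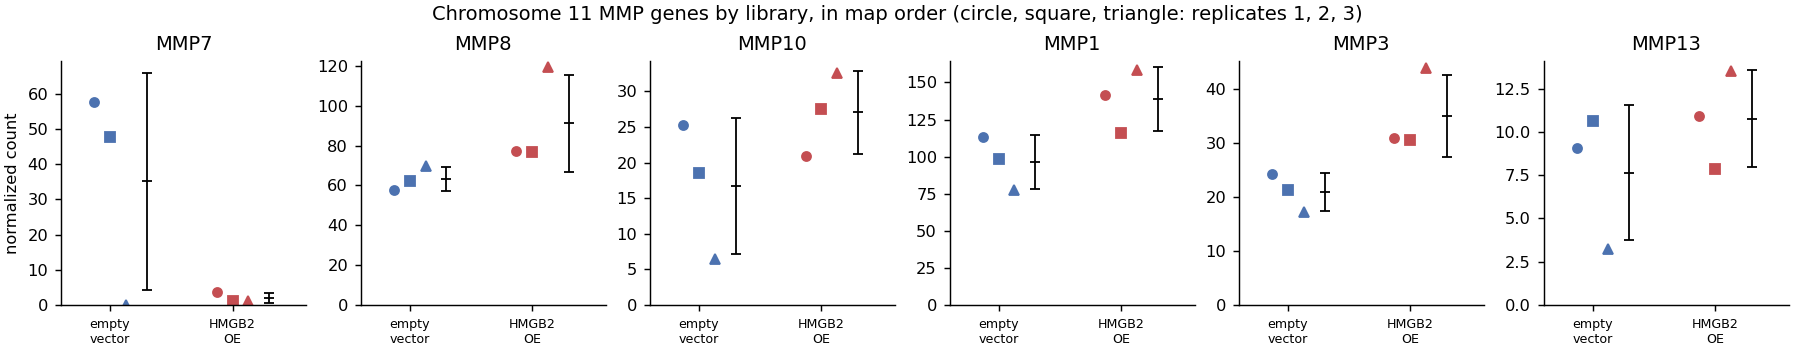
Normalized counts by library of the 6 tested MMP genes of the chromosome 11 cluster in map order, with circles, squares and triangles for replicates 1, 2 and 3, mean ± SD (n = 3) beside each group and axes starting at 0. Empty vector replicate 3 is at 0 in MMP7 and is the lowest library in MMP10, MMP1, MMP3 and MMP13, and the overexpressing libraries of MMP8, MMP1 and MMP3 lie above the controls.

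The MMPs that A375 cells made most were not called. MMP2, a gelatinase that cuts type IV collagen, had 11130.3, 10975 and 6856 normalized counts in empty vector libraries and 9449.6, 11309 and 7915 in overexpressing ones (log2 fold change -0.01, SE 0.20, 95% interval -0.40 to 0.37). MMP14, the membrane-bound collagenase that activates MMP2, had 6842, 6761 and 4302 without and 5664, 6482 and 4875 with HMGB2 (-0.07, 95% interval -0.44 to 0.29). In both genes replicate 3 was the lowest library of each group, and the ranges of the groups overlapped. The other gelatinase, MMP9, had 45 reads over the 6 libraries and a log2 fold change of -0.34 with a 95% interval of -1.90 to 1.22, which is too wide to place it.

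MMP16, another membrane-type MMP, had 6385, 7342 and 5251 normalized counts in empty vector libraries and 8403, 8599.6 and 7655 with HMGB2. The groups did not overlap (log2 fold change 0.38, SE 0.14, DESeq2 adjusted p = 0.107), and MMP16 was called higher in 4 of the 13 alternatives, including those without empty vector replicate 2 and without empty vector replicate 3. MMP17, which is anchored in the membrane by a lipid, had means of 775 ± 175 in empty vector and 535 ± 93.2 in overexpressing cells (SD, n = 3) with overlapping libraries (-0.53, SE 0.20, DESeq2 adjusted p = 0.109). It was called lower without empty vector replicate 3 (DESeq2 adjusted p = 0.00014). MMP15 had a log2 fold change of 0.11. MMP24 and MMP25 are overlapped by antisense genes, so the column used kept 6.82% and 18.1% of their stranded reads, and their fitted changes of 0.05 and -0.03 rest on few reads. Of the remaining MMPs, MMP19 had 205, 225 and 199.6 normalized counts without and 189, 211 and 186 with HMGB2 (-0.11, 95% interval -0.43 to 0.22, with 58.9% of its stranded reads kept) and MMP28, or epilysin, 10.1, 25.7 and 10.7 without and 20.0, 26.6 and 30.4 with HMGB2 (0.71, 95% interval -0.31 to 1.73).

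In the DESeq2 and edgeR fits of all 6 libraries by group alone, none of the TIMPs was called. In both, 0 of the 3 tested had an unadjusted p under 0.05. TIMP3, which is held in the matrix and inhibits ADAMs and ADAMTS enzymes as well as MMPs, had 81396, 83692 and 58771 normalized counts in empty vector libraries and 64779.9, 67257 and 55939 with HMGB2. Empty vector replicates 1 and 2 were above all overexpressing libraries and replicate 3 was within their range (log2 fold change -0.25, SE 0.15, 95% interval -0.55 to 0.05, DESeq2 adjusted p = 0.494). Without empty vector replicate 3 the change was -0.40 and TIMP3 was called lower (DESeq2 adjusted p = 0.000562), as it was with replicates 1 and 2 alone (DESeq2 adjusted p = 1.7e-07). A replicate block, which keeps all 6 libraries, also called TIMP3 lower (-0.24, DESeq2 adjusted p = 0.0150). TIMP1, a soluble inhibitor of most MMPs, had 13861, 15218 and 11849 without and 14301, 13759 and 13637 with HMGB2 (0.03, 95% interval -0.21 to 0.26). TIMP2, which inhibits MMP2 and also takes part in its activation with MMP14, had 4312, 4829 and 3112 without and 4707, 4887 and 3989 with HMGB2 (0.15, 95% interval -0.18 to 0.48). Both overlapped between groups, and TIMP2 kept 78.1% of its stranded reads. TIMP4 was near 0, with 2, 2 and 2 reads in the empty vector libraries and 6, 6 and 1 in the others.

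Of the genes of plasminogen activation, PLAT was called higher and PLAU and PLAUR were not called in the DESeq2 fit by group alone. PLAT (ENSG00000104368, chr8:42174718-42207709, minus strand) encodes tissue plasminogen activator and had 8362, 8200.0 and 7785 normalized counts in empty vector libraries and 9703, 10144 and 10132 with HMGB2. The groups were well separated, and the rise was small at 1.23-fold (log2 fold change 0.30, SE 0.09, DESeq2 adjusted p = 0.019, edgeR adjusted p = 0.0883). PLAUR, the receptor that holds urokinase at the cell surface, had 2842, 2805 and 2199 without and 2091, 2334 and 1675 with HMGB2 (-0.36, SE 0.16, DESeq2 adjusted p = 0.227). Overexpression replicate 2 overlapped the empty vector libraries, and without empty vector replicate 3 PLAUR was called lower (-0.47, DESeq2 adjusted p = 0.00259). It was also called lower with a replicate block (DESeq2 adjusted p = 0.000623) and with replicates 1 and 2 alone (DESeq2 adjusted p = 0.000651). With edgeR it was not called (adjusted p = 0.249). PLAU, or urokinase, had 197, 184 and 190.0 without and 174, 75.8 and 147 with HMGB2 (-0.52, SE 0.28, DESeq2 adjusted p = 0.388). Its groups did not overlap, the overexpressing libraries were spread widely, and the column used kept 57.9% of its stranded reads because C10orf55 overlaps it. Per kilobase of merged exons PLAT stood at 1286 ± 32.3 in overexpressing cells, PLAUR at 456 ± 74.8 and PLAU at 45 ± 17.3 (SD, n = 3).

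In the DESeq2 and edgeR fits of all 6 libraries by group alone, none of the 12 ADAMs tested was called. In both, 1 of them, ADAM23, had an unadjusted p under 0.05. ADAM10, the constitutive sheddase of Notch and of cadherins, had 8125, 8474 and 7337 normalized counts in empty vector libraries and 8692, 8972 and 8809 with HMGB2, without overlap but at a log2 fold change of 0.15 (95% interval -0.05 to 0.34). ADAM15, an ADAM with an integrin-binding motif, had 8774, 7984 and 8322 without and 7696, 7821 and 7540.5 with HMGB2, also without overlap (-0.12, 95% interval -0.30 to 0.06). ADAM17, the sheddase of TNF, kept 69.1% of its stranded reads because IAH1 overlaps it and had a log2 fold change of 0.07 with an interval of -0.15 to 0.28, and ADAM9 one of -0.01 with an interval of -0.18 to 0.16. The 3 ADAMs tested that lack a protease motif overlapped between groups except for ADAM11. ADAM23, a neuronal cell surface protein, had 1425, 1554 and 1160.1 without and 1790.4, 1830.0 and 1507 with HMGB2 (0.31, SE 0.15, DESeq2 adjusted p = 0.291) and was called higher with replicates 1 and 2 alone (DESeq2 adjusted p = 0.0202). With a replicate block on all 6 libraries ADAM23 was called higher too (0.31, DESeq2 adjusted p = 0.0118). ADAM22, the receptor of LGI proteins, had 892, 834 and 855 without and 976, 925 and 868 with HMGB2 (0.10, 95% interval -0.12 to 0.32), and ADAM11 had 301, 349 and 289.8 without and 271, 279.7 and 253 with HMGB2 (-0.23, 95% interval -0.53 to 0.08). The other tested ADAMs had log2 fold changes between -0.47 (ADAM28) and 0.12 (ADAM12), and 21.9% of the 50-base words of ADAM21 also occur in the pseudogene ADAM21P1.

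Among 18 ADAMTS genes tested, ADAMTS17 fell, 13 had positive changes and 5 negative ones, where 50.4% of all genes tested were positive. Some of the 13 rested on few reads, such as ADAMTS19 with 32 and ADAMTS8 with 46 over all libraries. ADAMTS17 (ENSG00000140470, chr15:99971437-100342005, minus strand), a member linked to fibrillin microfibrils and short stature, had 110.1, 139 and 117 normalized counts in empty vector libraries and 83.6, 68 and 67.5 with HMGB2. No library overlapped, and the level was 0.599-fold (log2 fold change -0.74, SE 0.23, DESeq2 adjusted p = 0.0365, edgeR adjusted p = 0.0642). It was called in 4 of 13 alternatives, fewest of the 6, and of those that leave out a library it was called without empty vector replicate 3. The column used kept 86.3% of its stranded reads, and from the sum of the stranded columns the log2 fold change was -0.69 (adjusted p = 0.0418, DESeq2). ADAMTS7, which cuts cartilage and vessel matrix proteins, had 561, 586 and 415 without and 373, 427 and 322 with HMGB2 (-0.48, SE 0.18, DESeq2 adjusted p = 0.122), was called lower without empty vector replicate 3 (DESeq2 adjusted p = 0.00136), overlapped between groups and shares 14.7% of its 50-base words with the pseudogene ADAMTS7P3.

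The ADAMTS enzymes that cut proteoglycans or procollagens were not called. ADAMTS1, a versican-cutting enzyme, had 514, 509 and 413 normalized counts in empty vector libraries and 601, 658 and 563 with HMGB2 (0.34, SE 0.15, DESeq2 adjusted p = 0.197). ADAMTS15, of the same group, had 79.8, 91.2 and 73 without and 105, 115 and 104 with HMGB2 (0.41, SE 0.23, DESeq2 adjusted p = 0.42). Neither overlapped, and 6 of the 7 proteoglycan-cutting members had positive changes, with ADAMTS20 at -0.42 and the aggrecanases ADAMTS4 and ADAMTS5 at 0.26 and 0.66. All 3 procollagen-cutting members had positive changes. ADAMTS3, which also matures VEGFC, had 291, 257 and 280.1 without and 329.7, 314 and 329 with HMGB2, not overlapping (0.23, 95% interval -0.05 to 0.52), ADAMTS2 had 23.2, 31.9 and 56.9 without and 47.2, 32.5 and 68.7 with HMGB2, overlapping (0.41, 95% interval -0.43 to 1.24), and ADAMTS14 was near the floor at means of 6.42 ± 4.71 and 16.7 ± 5.27. Of the others, ADAMTS12, the highest of the family per kilobase of merged exons, had 1441, 1599 and 1221 without and 1586, 1843 and 1597 with HMGB2 (0.24, 95% interval -0.03 to 0.51). ADAMTS16 had 134, 142 and 127 without and 187, 206 and 174 with HMGB2, without overlap (0.49, SE 0.18, DESeq2 adjusted p = 0.104).

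Genes that inhibit, activate or take up these proteases were listed separately. Of 78 listed, 70 were tested, 2 were called higher and 3 lower, against 2.29% and 2.64% of all genes tested. MME, or neprilysin, a cell surface peptidase, had 44.4, 54 and 81.6 normalized counts in empty vector and 251, 138 and 180.1 in overexpressing libraries (log2 fold change 1.66, SE 0.30, DESeq2 adjusted p = 4.5e-06). A pair of tetraspanins of the group that carries ADAM10 to the surface were called in opposite directions. TSPAN14 had 6383, 6719 and 6053 without and 8011, 8864 and 7726 with HMGB2 (0.36, SE 0.10, DESeq2 adjusted p = 0.0153), and TSPAN33 had 646, 583 and 562 without and 433, 402 and 359 with HMGB2 (-0.58, SE 0.14, DESeq2 adjusted p = 0.00152). Their partner ADAM10 was not called. ADAMTSL1, a relative of the ADAMTS enzymes without a protease domain, had 406, 401 and 269 without and 208, 223 and 188 with HMGB2 (-0.80, SE 0.20, DESeq2 adjusted p = 0.00271), and SERPINB8, an inhibitor of furin, had 1235, 1229 and 1329 without and 1058, 871 and 953 with HMGB2 (-0.40, SE 0.12, DESeq2 adjusted p = 0.0285).

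None of the 6 cystatins and cathepsin inhibitors, 10 other metalloproteinase inhibitors and inducers or 7 uptake receptors tested was called by DESeq2 or edgeR. An unadjusted p under 0.05 was reached by 2, 0 and 0 of them with DESeq2 and by 3, 1 and 0 with edgeR.

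Across the DESeq2 fit given above and its 13 alternatives, 15 members were called at least once. CTSS was called in 10 alternatives, CTSK and PLAT in 7 each, MMP11 in 6, CTSV in 5 and ADAMTS17 in 4, and all 6 kept their direction in every alternative. Their log2 fold changes over the alternatives ran from -0.79 to -0.60 for CTSS, 0.26 to 0.32 for PLAT, 0.65 to 0.83 for MMP11, 0.79 to 1.40 for CTSV and -0.85 to -0.64 for ADAMTS17. The highest DESeq2 adjusted p on leaving out a library was 0.355 for PLAT (without overexpression replicate 2), 0.556 for CTSV (without overexpression replicate 1) and 0.411 for ADAMTS17 (without empty vector replicate 2). The other 9 members, which were ADAM23, ADAMTS7, MMP7, MMP16, MMP17, TIMP3, CTSE, CTSZ and PLAUR, were called in 1 to 4 alternatives and not in the DESeq2 fit given above.

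**Figure D5:**
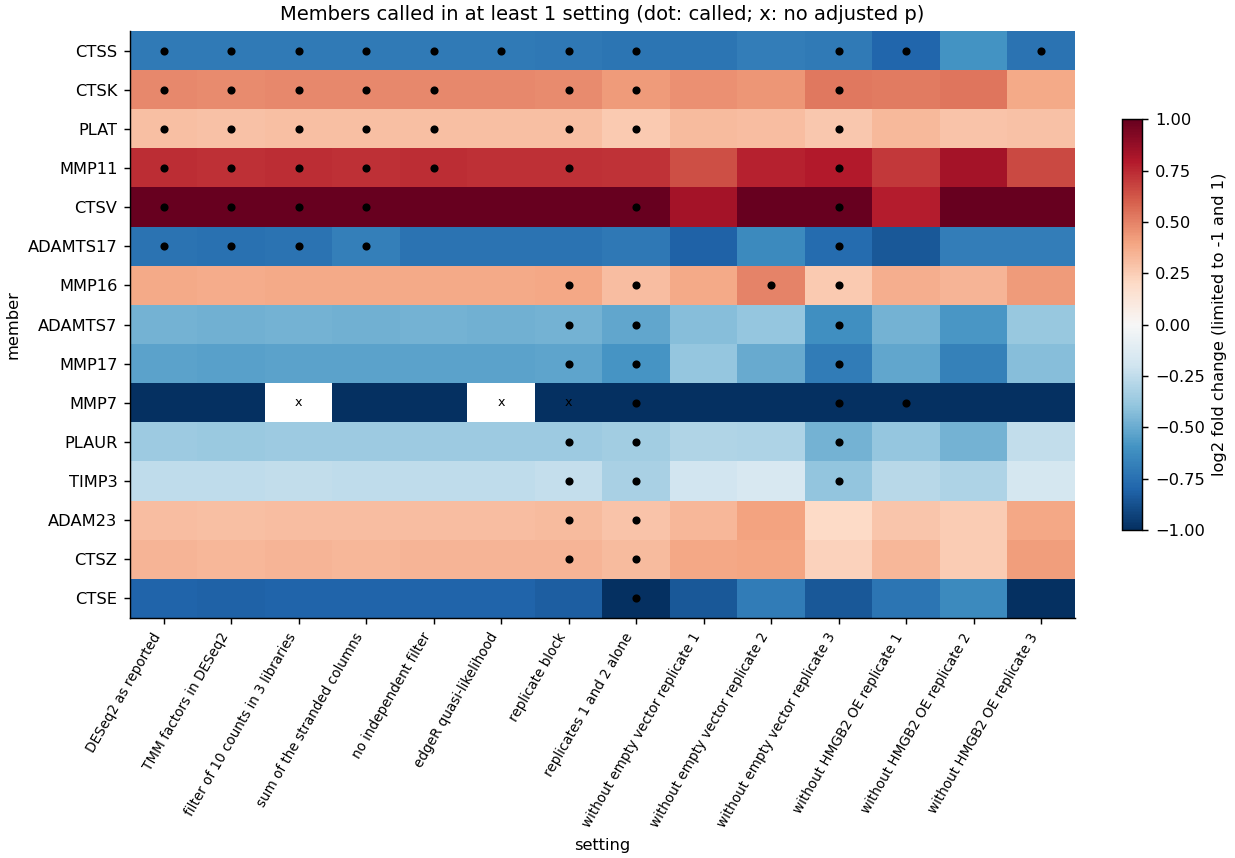
Log2 fold change (colour, limited to -1 and 1) of the 15 members called in at least 1 setting, with members in rows and the fit as reported and its 13 alternatives in columns, where a dot marks a call and an x the lack of an adjusted p. CTSS has the most dots, each row keeps 1 colour across settings, and the column without empty vector replicate 3 holds 12 dots.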

How the data were processed

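Poly(A) RNA of 6 A375 cell pellets was sequenced after library preparation with a kit that does not mark strand. Per the labels, reads were made with bcl2fastq 2.20, checked with FastQC, trimmed with Trimmomatic and aligned to GRCh38 with STAR, whose version and annotation release are not given in the sources used here. The authors deposited raw counts per gene, not normalized, as whole numbers in STAR's layout, with a column for either strand, used here, and 2 stranded columns, whose sum was an alternative. Reads mapping to several places made up 10.6% in overexpression replicate 3 and 2.58% to 4.89% in the other libraries. These reads and those shared by genes (10.7% to 11.4%) are counted for no gene, and the 4 summary lines were left out. Between 45925053 and 56755212 reads were assigned per library.

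Symbols, coordinates and lengths came from GENCODE 44, which 57532 of 58302 IDs matched. The test was that of DESeq2 1.42.0 under R 4.3.3, on the counts of all genes (defaults, Wald test, group only) after the study's methods, with Benjamini-Hochberg adjustment over the 18836 genes that passed the independent filter and calls at an adjusted p under 0.05. Fold changes are unshrunken, and intervals are 95% (1.96 SE). Alternatives were edgeR 4.0.16 (quasi-likelihood, TMM), TMM factors in DESeq2, a minimum of 10 counts in 3 libraries, no independent filter, the stranded sum, a replicate block, replicates 1 and 2 alone, and each library left out. The DESeq2 and edgeR fits were run on simulated counts drawn independently for each library. Such counts hold no outlying library and so cannot test the dependence on single libraries. Named with values in every library are called members, members with no overlap between groups whose mean normalized count was at least 50, the 2 highest of each role per length with a mean of 10 or more, all TIMPs, PLAU, PLAUR and PLAT, and called genes of the pathway lists. The members and lists were chosen with earlier results of these data known. With 3 libraries against 3, an exact permutation test cannot give a p under 0.1, so none was used for single values.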

Additional observations from a re-analysis of the deposited data

Results flagged for a closer look

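Most reads in the places of MMP24 and MMP25, membrane-type MMPs overlapped by antisense genes, lay outside the column used for the comparisons. The sum of the stranded columns held 2039 reads listed under MMP24 over the 6 libraries, of which the column used kept 6.82%, and the log2 fold change from it was 0.45 (adjusted p = 0.169, DESeq2). For MMP25 the sum held 977 reads, of which 18.1% were kept, and gave -0.30 (DESeq2 adjusted p = 0.743). The libraries do not mark strand, so reads of these genes and of MMP24OS and MMP25-AS1 cannot be told apart in that sum. Groups of 3 libraries were not tested for single outlying samples.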

How the results depend on the processing

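With edgeR 0 members were called higher and 1 lower (14 and 6 at an unadjusted p under 0.05). Of 67 genes of the pathway lists tested by edgeR, 1 was called higher and 2 lower, against 1.28% and 1.52% of 16754 genes. Without the independent filter 1 member was called lower. With replicates 1 and 2 alone 7 of 60 members tested were called lower (11.7%). Of 61 pathway genes tested in that fit, 7 were called higher and 11 lower. Over 15028 genes, 8.01% were called higher and 9.44% lower. On leaving out 1 library at a time, the members called ranged from 0 to 5 higher and from 0 to 7 lower, and the pathway genes from 1 to 8 higher and from 0 to 10 lower. The highest counts came without empty vector replicate 3, where 64 pathway genes were tested and 8.31% and 9.46% of 16062 genes were called higher and lower. Where leaving out a library gave 0 members in a direction, between 3 and 9 had an unadjusted p under 0.05 in it (DESeq2), as did 3 pathway genes where none was called lower. HMGB2 kept its direction and its call in all 13 alternatives (log2 fold change 0.98 to 1.09).

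With a replicate block 6 members were called higher (ADAM23, MMP16, MMP11, CTSZ, CTSK and PLAT) and 5 lower (ADAMTS7, MMP17, TIMP3, CTSS and PLAUR), against 6.09% and 6.46% of 14552 genes. Of 61 pathway genes tested in that fit, 5 were called in each direction. ADAMTS17 (DESeq2 adjusted p = 0.0745) and CTSV (0.0685) were then not called. Libraries with the same number had correlations of their deviations from the group means of 0.0906, 0.142 and 0.349. Empty vector replicates 2 and 3 correlated best with the overexpression library of the same number, but empty vector replicate 1 with overexpression replicate 2 (0.212). Whether the numbers pair the libraries was thus not settled, and the fit by group alone follows the study's methods. Empty vector replicate 3 had -0.137 and -0.253 with overexpression replicates 1 and 2. Overexpression replicate 3 had -0.272 and -0.217 with empty vector replicates 1 and 2. Deviations from a group mean cancel out within the group, so these negative values follow on balance from the 0.349 and add no separate evidence. By that 0.349 the replicate 3 libraries shared deviations, which the fit by group alone leaves in the spread between libraries. Their source was not tested.

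The sign of the log2 fold change turned for 6 named members near 0, none of them called in any setting. CTSB was at -0.0205 and TIMP1 at -0.0506 with replicates 1 and 2 alone, and MMP2 at 0.0042 with the replicate block. On leaving out 1 library, CTSB ranged from -0.0807 to 0.0711, CTSD from -0.117 to 0.0184, MMP14 from -0.261 to 0.0338, MMP2 from -0.209 to 0.103, TIMP1 from -0.0643 to 0.110 and TIMP2 from -0.0127 to 0.284. Counting error, a spread that covers pellets of 1 line per group, and undercounting of members that overlap other genes limit what these libraries can show.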
